A study of Mus musculus with 6 samples.

Results

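The genes described here encode solute carriers, membrane proteins that move sugars, lactate, ions, metals, vitamins and other small molecules across the plasma membrane or the membranes of organelles. They were chosen by symbol: every row of the deposited table whose name is Slc, a family number, the letter a and a member number, except the families Slc1, Slc3, Slc6, Slc7, Slc25, Slc36, Slc38 and Slc43, which hold amino acid and mitochondrial carriers. This left 117 of the 12151 genes of the table, out of 185 that fit the symbol pattern. Of the 117, 4 carry the name without being carriers: Slc9a3r1 and Slc9a3r2 encode scaffold proteins, Slc4a1ap a nuclear protein first found as a binding partner of a bicarbonate exchanger, and Slc2a4rg-ps is annotated as a pseudogene.

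RNA was sequenced from cultured mouse glioma cells. The mNS cells, labelled as glioma stem-like cells, grew as neurospheres in DMEM/F12 with B-27 supplement, basic FGF, EGF and heparin, and were taken at passages 72, 77 and 85 (replicates 1, 2 and 3). The GL261 cells, labelled as differentiated glioma cells, grew in DMEM with fetal bovine serum and were taken at passages 17, 33 and 34 (replicates 1, 2 and 3; the passage field of the third reads 33). Both media held penicillin, streptomycin, HEPES, glutamine and β-mercaptoethanol, and no treatment or engineered allele is given for either. Cell line, medium and passage differ together between the groups and cannot be told apart, and the labels name no separate cultures beyond the passages, so p-values reflect how far these libraries vary, which may be technical.

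Facilitative sugar carriers of the Slc2 family let glucose and related sugars follow their gradient, and Slc16 carriers move lactate, pyruvate and related acids together with protons. Zinc is handled by a pair of families that work in opposite directions. Slc30 proteins move zinc out of the cytosol, to the outside or into vesicles, and Slc39 proteins move it into the cytosol. Sodium-coupled families (Slc5, Slc20, Slc23), cation-chloride carriers (Slc12) and proton or bicarbonate carriers (Slc4, Slc9) use the ion gradients that the sodium pump maintains.

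Between 12534422 and 14225175 reads per library fell in the listed genes. Values are CPM, read counts that the authors scaled to library size, and 1 read was worth 0.0708 to 0.0773 CPM. Pearson's r of log2(CPM + 1) across 12006 genes was 0.987 to 0.997 within groups and 0.845 to 0.856 between them. Of the marker lists for other cell types, no endothelial marker of 6 was listed, and 2 of 6 fibroblast and pericyte markers were, with summed levels of 4.64 to 8.61 CPM in mNS and 119 to 136 CPM in GL261, nearly all Col1a1. The 5 listed of 7 astrocyte markers summed to 307 to 361 CPM in mNS and 240.5 to 325 CPM in GL261. All 5 were called, 2 higher and 3 lower in mNS. Aldoc averaged 185 CPM in mNS and 27.5 CPM in GL261, while Aldh1l1 had 0 reads in mNS and averaged 8.19 CPM in GL261. All 8 markers of the oligodendrocyte lineage were listed, with sums of 1309 to 1515 CPM in mNS and 1519 to 1639 CPM in GL261, and all were called, 5 higher and 3 lower in mNS. Among them Olig2 averaged 437 CPM in mNS and 8.54 CPM in GL261, and Mbp 33.7 CPM in mNS and 763 CPM in GL261. Of 6 neuronal markers 3 were listed, 2 higher and 1 lower in mNS, with sums of 239.8 to 251 CPM in mNS and 372 to 383 CPM in GL261. Tubb3, the one that fell, averaged 8.85 CPM in mNS and 234 CPM in GL261. Of 8 microglial markers 4 were listed, with sums of 38.9 to 39.9 CPM in mNS and 42.8 to 46.04 CPM in GL261. Of 5 listed neural stem markers 2 rose, 2 fell and 1 was not called: Fabp7 averaged 89.8 CPM in mNS and 3.24 CPM in GL261, Vim 3659 CPM in mNS and 7257 CPM in GL261, and Sox2, the one not called, 184 CPM in mNS and 181 CPM in GL261. Prom1 was not among the listed genes. The part of these markers in the results was not tested, and in such bulk libraries fewer cells of a type and less RNA per cell cannot be told apart.

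Carrier genes differed between the cell forms in both directions. Differences were tested with limma on log2(CPM + 1) over the 12006 genes whose mean reached 1 CPM, and genes with an adjusted p under 0.05 are named as called. Of 115 carrier genes tested, 49 were higher in mNS, 30 were lower and 36 were not called. Over all tested genes 64.3% were called (32.2% higher and 32.1% lower), so the carriers' share of 68.7% lies near the background. Counts by family and by partner list below are to be read beside these shares. No family or list was tested as a set. A called difference of at least 1 on the log2(CPM + 1) scale, about 2-fold, was found for 19 carriers higher in mNS and 8 lower, 23.5% of those tested, beside 19.7% of all genes (11.3% higher and 8.47% lower). The groups were fully apart for 82 of the 115 (71.3%, beside 69.9% of all genes). The median log2 difference was 0.13 for the carriers and -0.0027 for all tested genes. Slc5a11 and Slc13a3, with means under 1 CPM, were not tested; Slc13a3 averaged 1.32 ± 0.197 CPM in mNS and 0.294 ± 0.121 CPM in GL261.

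**Figure D1:**
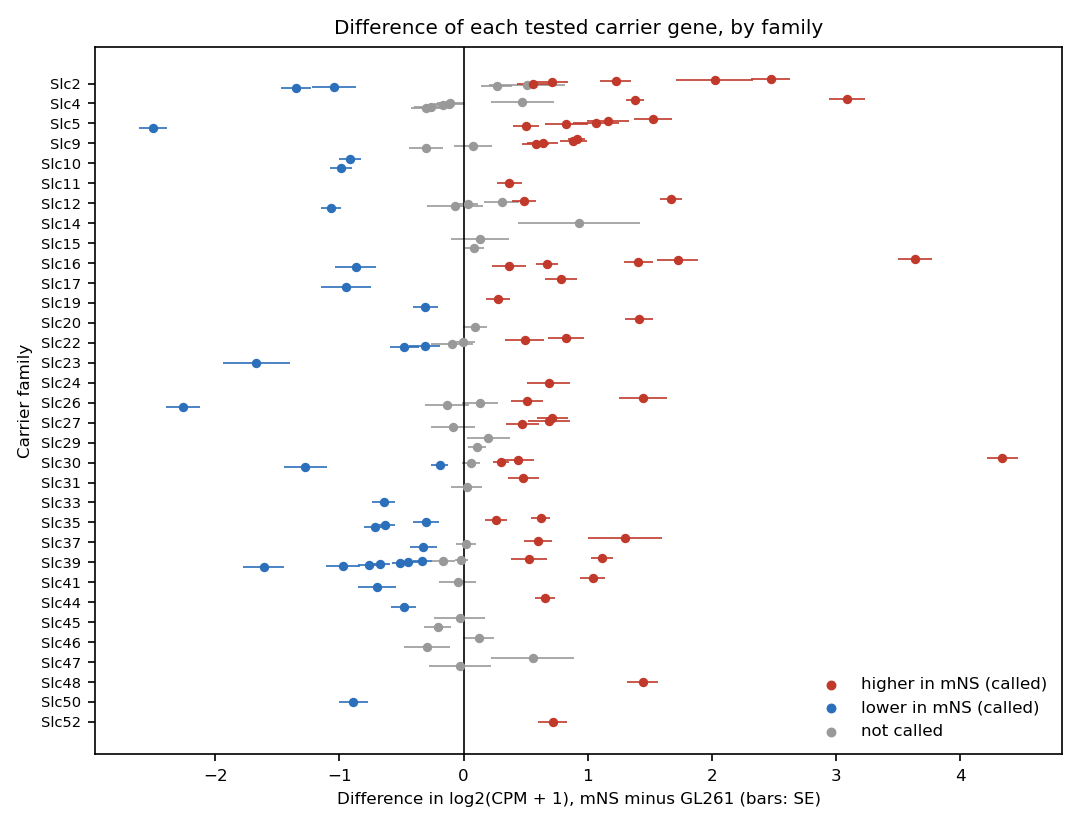
Each point is 1 tested carrier gene, placed by its difference in log2(CPM + 1), mNS minus GL261 (horizontal axis, bars are SE), in the row of its family. Slc30a4 lies farthest to the right at 4.34 and Slc5a8 farthest to the left at -2.50, and most called Slc39 genes lie left of 0.

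A single zinc carrier gene stood far above all others in the neurospheres. Slc30a4 (ZnT4), which loads zinc into vesicles and whose loss in mice gives the lethal milk phenotype, spans positions 122681233 to 122702663 of chromosome 2 on the minus strand (GRCm38). Its level was 2644, 3125 and 2722 CPM in mNS replicates 1 to 3, and 112, 157 and 151 CPM in GL261 replicates 1 to 3. All mNS libraries lay far above all GL261 libraries. The means were 2830.3 ± 258 CPM in mNS and 140 ± 24.3 CPM in GL261 (SD, n = 3 each), a ratio of 20.2, with a log2 difference of 4.34 and an SE of 0.13 (adjusted p = 3.59e-08 in limma). By mean CPM it ranked 10 of 12151 genes in mNS and 1833 in GL261. It made up 28.9, 31.6 and 29.01% of the summed CPM of the 117 carriers in the mNS libraries, and 1.79, 2.42 and 2.31% in the GL261 libraries. With it the carriers summed to 9469.5 ± 386 CPM in mNS and 6436 ± 150 CPM in GL261, and without it to 6639 ± 139 CPM in mNS and 6296 ± 128 CPM in GL261.

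The promoters of Slc30a4 and of Slc30a1, the zinc exporter of the plasma membrane and a known target of the metal-sensing factor MTF1, are shown because these genes had the largest rise and the largest fall of the Slc30 family. The sequences run from 250 bases before to 50 after the RefSeq start site (GRCm38.p6), and capitals mark matches to the core of the metal response element, searched as TGCACNC and TGCGCNC on both strands, each match counted also where it overlaps another.
Slc30a4, chr2:122702614-122702913, minus strand: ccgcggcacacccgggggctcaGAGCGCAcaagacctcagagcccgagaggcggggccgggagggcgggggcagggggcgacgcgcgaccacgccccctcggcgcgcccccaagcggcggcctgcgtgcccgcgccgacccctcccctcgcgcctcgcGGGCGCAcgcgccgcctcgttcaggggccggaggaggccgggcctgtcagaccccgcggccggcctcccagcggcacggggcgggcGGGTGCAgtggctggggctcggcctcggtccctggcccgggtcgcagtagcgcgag
Slc30a1, chr1:191906531-191906830, plus strand: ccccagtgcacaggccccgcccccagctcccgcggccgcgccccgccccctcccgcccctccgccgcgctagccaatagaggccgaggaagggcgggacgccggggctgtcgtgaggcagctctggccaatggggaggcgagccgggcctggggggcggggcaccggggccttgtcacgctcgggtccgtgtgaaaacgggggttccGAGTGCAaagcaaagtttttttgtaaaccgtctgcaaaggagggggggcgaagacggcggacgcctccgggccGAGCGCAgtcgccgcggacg
Slc30a4 held 3 matches and Slc30a1 2, all on the opposite strand to the gene. Among the 32851 promoters that RefSeq gives, 25.7% held at least 1 match, 7.11% at least 2 and 1.97% at least 3. Of the 17 zinc carriers measured, 14 had a promoter there, at 17 start sites in all, of which 8 held a match (47.1%) and 11.8% at least 2. A match is a run of letters and not a measured site. The shares were not matched for base composition, and whether the matches bear on the differences was not tested.

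The other Slc30 genes differed far less. Slc30a1 fell to 21.7, 13.8 and 13.2 CPM in mNS, against 37.6, 42.8 and 39.4 CPM in GL261, a log2 difference of -1.28 ± 0.17 (adjusted p = 0.000231). The groups did not overlap, and replicate 1 was the highest of the mNS libraries. Slc30a5 and Slc30a7, which load zinc into the secretory pathway, rose by 0.44 ± 0.13 and 0.30 ± 0.07 (SE) on the log2 scale (adjusted p = 0.0149 and 0.00338). Slc30a6, the partner of Slc30a5 in a heterodimer, fell by 0.19 ± 0.07 (adjusted p = 0.0415), a call that was lost when any 1 of the 6 libraries was left out. Slc30a5 missed the threshold without mNS replicate 2 (adjusted p = 0.0531). Slc30a9, linked to mitochondrial zinc, was not called, at 160 ± 6.81 CPM in mNS and 154 ± 11.2 CPM in GL261. The summed CPM of the family without Slc30a4 was 470 ± 12.99 in mNS and 431 ± 38.8 in GL261.

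Most genes of the zinc uptake family Slc39 were lower in mNS. Of 11 tested, 7 fell, 2 rose and 2 were not called, beside 32.1% lower and 32.2% higher of all tested genes. The median log2 difference was -0.45, and 9 genes were called with any 1 library left out. The largest fall was that of Slc39a8 (ZIP8), which also carries manganese and cadmium: 0.377, 0.387 and 0.425 CPM in mNS, against 4.10, 3.06 and 2.75 CPM in GL261. Its mNS values rest on 16 reads in all, and the log2 difference was -1.61 ± 0.17 (adjusted p = 4.64e-05). Its close relative Slc39a14 (ZIP14), a carrier of zinc, iron and manganese, fell to 65.0, 66.3 and 63.0 CPM in mNS, against 98.7, 145 and 147 CPM in GL261. This was a log2 difference of -0.97 ± 0.14 (adjusted p = 0.000351), and GL261 replicate 1 lay nearest to the mNS libraries.

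The other Slc39 genes that fell were Slc39a13 (-0.76), Slc39a11 (-0.68), Slc39a6 (-0.51), Slc39a9 (-0.45) and Slc39a1 (-0.33), all on the log2 scale. Slc39a6 (ZIP6), a plasma membrane importer, was the most abundant of them, at 309 ± 20.9 CPM in mNS and 441 ± 21.0 CPM in GL261. Its partner in a heteromer, Slc39a10 (ZIP10), went the other way: 141, 159 and 160.2 CPM in mNS, against 63.4, 75.3 and 72.3 CPM in GL261 (log2 difference 1.11 ± 0.09, adjusted p = 7.88e-06). Per kilobase of annotated exon, Slc39a6 averaged 75.9 CPM in mNS and 108 CPM in GL261, and Slc39a10 25.1 CPM in mNS and 11.5 CPM in GL261. Slc39a4, the importer of the gut, also rose, on 128 reads in mNS and 77 in GL261 (log2 difference 0.53, adjusted p = 0.0115; not called by DESeq2 or after quantile normalisation). Slc39a7 (ZIP7), which releases zinc from the endoplasmic reticulum, stood at 246 ± 2.34 CPM in mNS and 249 ± 6.37 CPM in GL261, and 80.7% of its exon bases were shared with an unlisted transcript on the same strand. Slc39a3 was not called either (-0.16). Summed over the family, Slc39 reached 1018 ± 36.9 CPM in mNS and 1226 ± 58.8 CPM in GL261.

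**Figure D2:**
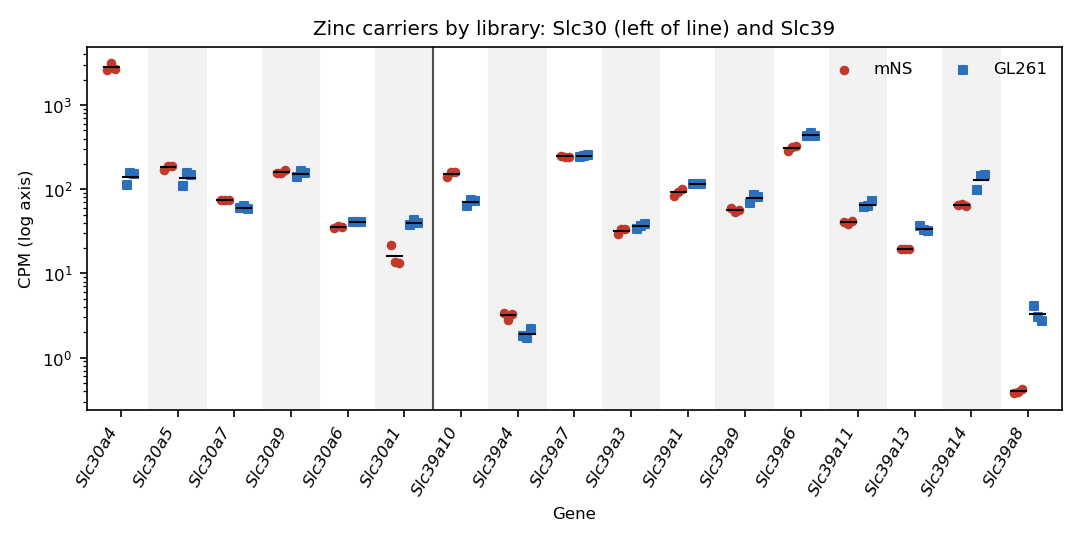
CPM on a log axis for the 6 Slc30 genes (left of the line) and the 11 Slc39 genes, each family ordered by its difference; points are single libraries (mNS circles, GL261 squares) and bars are group means. Slc30a4 lies between 2644 and 3125 CPM in mNS, above every other zinc carrier, while 7 Slc39 genes lie lower in mNS than in GL261.

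Other genes of zinc handling moved both ways: of 5 in the table, 1 rose, 2 fell and 2 were not called. The metallothionein gene Mt3, whose product binds zinc and copper, rose to 9.54 ± 1.25 CPM in mNS, against 1.08 ± 0.133 CPM in GL261. Mtf1, the metal-sensing transcription factor, fell by 0.82 and Zfp658 by 0.63 on the log2 scale. The other metallothionein genes, added after their values were seen, were not called: Mt1 averaged 195 ± 2.30 CPM in mNS and 199.7 ± 18.4 CPM in GL261, and Mt2 51.0 ± 3.22 CPM in mNS and 57.7 ± 4.06 CPM in GL261.

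The genes nearest to Slc30a4 did not share its rise in size. Within 600 kb of its start site 7 other genes were listed, of which 4 were higher in mNS, 1 lower and 2 not called. Bloc1s6, a subunit of a complex that builds lysosome-related organelles and the nearest gene, rose to 67.1 ± 1.89 CPM in mNS, against 37.4 ± 2.65 CPM in GL261 (log2 difference 0.83). Gatm, an enzyme of creatine synthesis, fell by 0.93 on the log2 scale. The largest difference among the 7 was that of Shf, at 1.31, beside 4.34 for Slc30a4. Of the exon bases of Slc30a4, 2.37% overlap an unlisted noncoding transcript on the other strand.

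**Figure D3:**
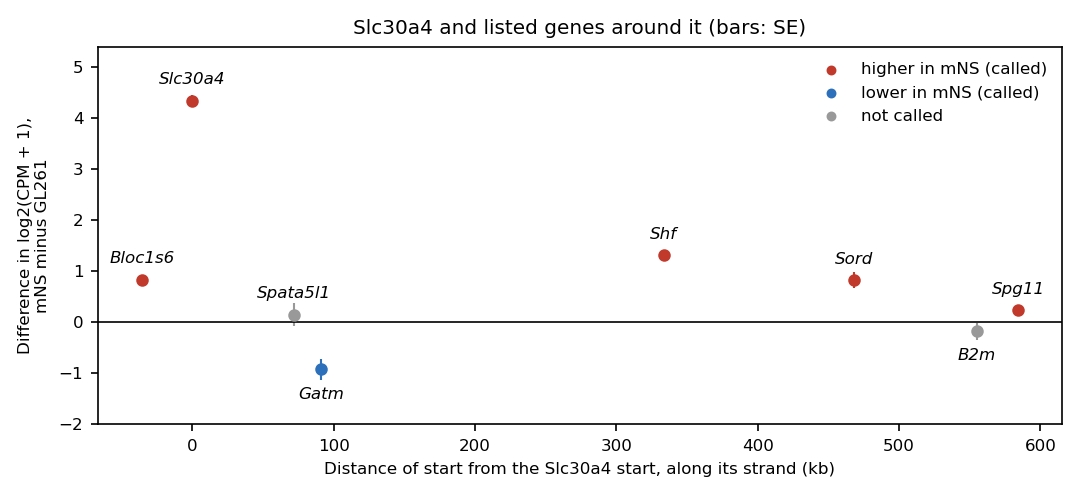
The difference in log2(CPM + 1), mNS minus GL261 (vertical axis, bars are SE), of Slc30a4 and the 7 listed genes starting within 600 kb, by distance along the strand of Slc30a4. Slc30a4 stands at 4.34 and the others lie between -0.93 and 1.31.

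The main glucose carriers moved in opposite directions. Slc2a1 (GLUT1), the general glucose carrier of glia and barrier cells (chromosome 4, 119108711 to 119137983), had 193, 169 and 133 CPM in mNS and 67.8, 67.3 and 72.6 CPM in GL261. Every mNS library lay above every GL261 library, with replicate 3 the lowest of mNS. The log2 difference was 1.22 ± 0.12 (adjusted p = 4.18e-05). Slc2a3 (GLUT3), the carrier of high affinity known from neurons (chromosome 6, 122727809 to 122801640), had 33.5, 37.96 and 34.9 CPM in mNS and 77.0, 93.1 and 109 CPM in GL261. Here every mNS library lay below every GL261 library, and the log2 difference was -1.35 ± 0.12 (adjusted p = 1.94e-05). Per kilobase of exon, the level of Slc2a1 was 11.9, 9.21 and 7.86 times that of Slc2a3 in the mNS libraries, and 1.82, 1.495 and 1.38 times in the GL261 libraries. This ratio, like those of other pairs below, was chosen after the values were seen and carries no test.

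Of the 9 Slc2 genes 5 rose, 2 fell and 2 were not called, with a median log2 difference of 0.56. Slc2a6, a lysosomal member, rose the most on the log2(CPM + 1) scale, by 2.47 ± 0.16 (adjusted p = 2.64e-06 in limma). It had 22.95, 29.9 and 34.3 CPM in mNS and 4.77, 4.56 and 3.76 CPM in GL261. Slc2a13, which carries myo-inositol with protons, had 9.13, 4.33 and 3.04 CPM in mNS and 0.745, 0.374 and 0.361 CPM in GL261. The groups did not overlap, though replicate 1 stood above the other mNS libraries, and the log2 difference was 2.02 ± 0.31 (adjusted p = 0.000513). By ratio of means Slc2a13 rose 11.2-fold, more than Slc2a6 at 6.66-fold. Slc2a8, an intracellular member, rose by 0.71 and the pseudogene Slc2a4rg-ps by 0.56. Slc2a9, the urate carrier, fell to 0.473 ± 0.236 CPM in mNS, against 2.02 ± 0.261 CPM in GL261 (log2 difference -1.05), on 19 reads in mNS and 82 in GL261. Slc2a10 and Slc2a12 were not called (0.27 and 0.51), though Slc2a10 was after rescaling to a common sum, at 0.35. Slc2a12, which shares exon bases with Tbpl1 on the other strand, passed the threshold without mNS replicate 2, with a difference of 0.80.

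All 6 tested Slc16 genes were called, beside 64.3% of all tested genes: 5 rose and 1 fell in mNS. Slc16a7 (MCT2), a monocarboxylate carrier of high affinity known from neurons, rose the most (chromosome 10, 125219270 to 125389465). It had 17.9, 21.0 and 20.1 CPM in mNS and 0.522, 0.822 and 0.650 CPM in GL261, which is 793 reads against 27. The ratio of means was 29.6 and the log2 difference 3.64 ± 0.13 (adjusted p = 1.10e-07). Slc16a1 (MCT1), the widely expressed lactate carrier, had 203, 242 and 249.9 CPM in mNS and 139, 152 and 143 CPM in GL261 (log2 difference 0.67 ± 0.09, adjusted p = 0.000167). Slc16a3 (MCT4), known for lactate export from glycolytic cells, was the member that fell: 39.7, 61.4 and 63.4 CPM in mNS, against 90.7, 97.9 and 109 CPM in GL261. Its log2 difference was -0.87 ± 0.17 (adjusted p = 0.00178), with mNS replicate 1 the lowest library. Per kilobase of exon, the level of Slc16a1 was 6.14, 4.74 and 4.74 times that of Slc16a3 in the mNS libraries, and 1.85, 1.87 and 1.58 times in the GL261 libraries.

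Slc16a6 rose to 11.98 ± 0.845 CPM in mNS, against 3.89 ± 0.134 CPM in GL261 (log2 difference 1.41). It shares 21.5% of its exon bases with Amz2 on the other strand, which averaged 86.2 CPM in mNS and 56.2 CPM in GL261, and although the library kit keeps the strand, the sources used here do not say whether counting used it. Slc16a13 passed the threshold narrowly, with groups that overlapped: 22.9, 26.8 and 27.2 CPM in mNS and 24.2, 17.4 and 17.99 CPM in GL261. Its log2 difference was 0.36 (adjusted p = 0.0453), and the call was lost without mNS replicate 2 or 3, without GL261 replicate 2 or 3, and under 2 of the 3 rescalings tried.

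**Figure D4:**
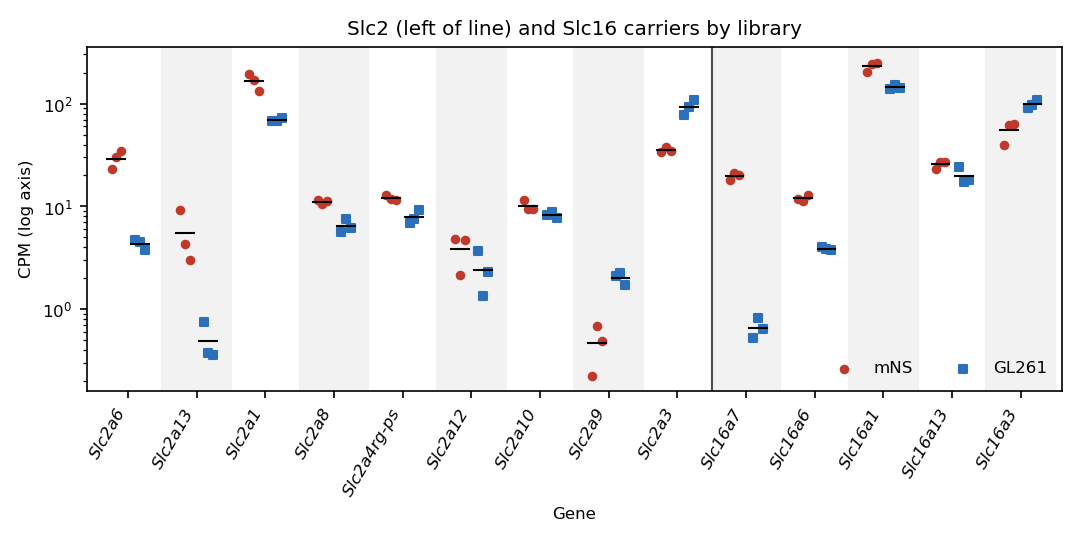
CPM on a log axis for the 9 Slc2 genes (left of the line) and the 5 Slc16 genes with at least 0.2 CPM in every library, each family ordered by its difference; points are single libraries (mNS circles, GL261 squares) and bars are group means. Slc2a1 and Slc16a1 lie higher in mNS, Slc2a3 and Slc16a3 lower, and Slc16a7 is below 1 CPM in every GL261 library.

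Of 17 listed genes of glycolysis, lactate metabolism and their regulation, 7 rose, 7 fell and 3 were not called, with a median log2 difference of -0.05. Ldhb, the lactate dehydrogenase subunit of oxidative tissues, rose by 1.36. The glycolytic enzyme genes Pgk1 and Gapdh fell by 0.92 and 0.81. Gapdh has many near-identical pseudogene copies, and its mean of 12.3 CPM in mNS and 22.4 CPM in GL261 is uncertain for that reason. Bsg, which encodes the chaperone that brings MCT1 and MCT4 to the membrane, is added after its value was seen: 350.2 ± 18.5 CPM in mNS and 568 ± 17.8 CPM in GL261 (log2 difference -0.70).

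Of the sodium-coupled Slc5 carriers all 6 that were tested were called, beside 64.3% of all tested genes: 5 rose and 1 fell in mNS. Slc5a3 (SMIT1), which takes up the osmolyte myo-inositol, was the most abundant carrier of the 117 after Slc30a4 by mean over all libraries. It had 695, 899.7 and 795 CPM in mNS and 274, 426 and 462 CPM in GL261, where replicate 1 was the lowest (log2 difference 1.07 ± 0.18, adjusted p = 0.000964). Slc5a1 (SGLT1), the sodium-glucose carrier, had 23.6, 28.5 and 37.4 CPM in mNS and 10.96, 13.1 and 13.7 CPM in GL261 (log2 difference 1.16 ± 0.17). Its relative Slc5a10 had 96 reads in mNS and 7 in GL261, and Slc5a5, the iodide carrier of the thyroid, 73 in mNS and 23 in GL261 (log2 differences 1.52 and 0.83, both higher). The family's only fall was that of Slc5a8 (SMCT1), a sodium-coupled carrier of monocarboxylates. On the log2(CPM + 1) scale it was the largest fall of all carriers tested. By ratio of means Slc39a8 fell more, 8.34-fold beside 6.24-fold for Slc5a8. Slc5a8 had 8.53, 8.81 and 7.93 CPM in mNS and 59.3, 52.02 and 46.3 CPM in GL261, a log2 difference of -2.50 ± 0.11 (adjusted p = 3.07e-07). Slc5a11, another inositol carrier, had 57 reads in mNS and 0 in GL261, at least 6.35-fold higher against a floor of 3 reads in each GL261 library.

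Among the cation-chloride carriers, an importer and an exporter moved apart. Slc12a2 (NKCC1), which brings sodium, potassium and chloride into cells, had 529.7, 456 and 429 CPM in mNS and 136, 156 and 148 CPM in GL261 (log2 difference 1.67 ± 0.09, adjusted p = 8.54e-07). Slc12a4 (KCC1), which lets potassium and chloride out, had 75.0, 84.4 and 84.4 CPM in mNS and 159, 169 and 187 CPM in GL261 (-1.07 ± 0.08, adjusted p = 7.23e-06). The groups did not overlap for either gene. Per kilobase of exon, the level of Slc12a2 was 2.77, 2.12 and 1.99 times that of Slc12a4 in the mNS libraries, and 0.336, 0.363 and 0.311 times in the GL261 libraries. Of the 4 other Slc12 genes 1 was called, higher in mNS. Of 11 genes of the sodium pump and of the WNK kinase pathway that controls these carriers, 2 rose, 6 fell and 3 were not called. Wnk2 fell by 1.96 and the pump subunit gene Atp1b2 by 1.60 on the log2 scale.

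Among proton and bicarbonate carriers, all genes called with all 6 libraries were higher in mNS. Of 8 Slc4 genes 2 rose and 6 were not called; without GL261 replicate 1, 2 rose and 2 fell, and without mNS replicate 3 or GL261 replicate 3, 2 rose and 1 fell, while without mNS replicate 2, 3 rose. Slc4a4 (NBCe1), the electrogenic sodium-bicarbonate carrier of astrocytes and kidney, had 8.46, 6.88 and 7.22 CPM in mNS and 0 reads in all GL261 libraries. Against the same floor it was at least 33.9-fold higher (adjusted p = 4.10e-07). Slc4a8 had 58.2, 59.8 and 58.1 CPM in mNS and 21.3, 21.9 and 22.5 CPM in GL261 (log2 difference 1.38 ± 0.07). The anion exchanger gene Slc4a2 was the most abundant of the family and was not called, at 158 ± 8.90 CPM in mNS and 171 ± 25.7 CPM in GL261; without GL261 replicate 1 it was called, at -0.23. Of 6 Slc9 rows 4 rose and 2 were not called. These rises included the sodium-proton exchanger gene Slc9a8 (log2 difference 0.91) and the scaffold genes Slc9a3r1 (0.64) and Slc9a3r2 (0.88). Of 7 listed carbonic anhydrase and proton channel genes, 4 rose and 2 fell: the proton channel gene Hvcn1 rose by 3.04 and Car14 by 2.49, and Car5b fell by 1.74 on the log2 scale.

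Phosphate and sulfate carriers included some of the larger differences. Slc20a1 (PiT1), a sodium-phosphate carrier, had 172, 223 and 237 CPM in mNS and 79.6, 75.5 and 78.0 CPM in GL261 (log2 difference 1.41 ± 0.11, adjusted p = 9.37e-06). The other member, Slc20a2, was not called. Slc26a2, the sulfate carrier that supplies proteoglycan sulfation in cartilage, had 107, 86.5 and 80.3 CPM in mNS and 357, 473 and 494 CPM in GL261. All mNS libraries lay below all GL261 libraries (-2.26 ± 0.14, adjusted p = 2.12e-06). Slc26a11 went the other way, at 16.9 ± 3.47 CPM in mNS and 5.60 ± 1.34 CPM in GL261 (1.45 ± 0.19). Of the 3 other Slc26 genes 1 was called, higher in mNS. Of 6 listed genes of phosphate export, inositol and choline metabolism, 3 rose and 2 fell. Chka, a choline kinase, rose by 1.25, and Nfat5, the transcription factor of the response to osmotic stress, by 0.75, and the phosphate exporter gene Xpr1 fell by 0.49 on the log2 scale.

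Slc23a2 (SVCT2), which takes up ascorbate, fell in mNS and varied within GL261. It had 76.2, 77.9 and 75.7 CPM in mNS and 419, 189.9 and 186 CPM in GL261, where passage 17 stood above passages 33 and 34. The log2 difference was -1.67 ± 0.27 (adjusted p = 0.000679), and every GL261 library lay above every mNS library. Slc48a1, which moves heme out of endolysosomes, rose to 47.8 ± 5.21 CPM in mNS, against 17.0 ± 2.52 CPM in GL261 (1.44 ± 0.13). The magnesium carrier gene Slc41a1 was 2.11-fold higher in mNS, while Slc41a2 fell by 0.70 on the log2 scale. Of the genes of iron and copper handling 10 were listed and 9 tested, of which 3 rose, 1 fell and 5 were not called. The ferritin gene Fth1 and the transferrin gene Trf rose by 2.61 and 1.61, and the copper pump gene Atp7a fell by 2.41. The iron carrier gene Slc11a2 (0.37) and the copper carrier gene Slc31a2 (0.48), both added after their values were seen, rose, and the call of Slc11a2 was lost without mNS replicate 2 (adjusted p = 0.0504).

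Carriers of the endoplasmic reticulum, Golgi and lysosome were mixed. Of 5 Slc35a genes, which bring nucleotide sugars into the Golgi, 3 fell and 2 rose. Without mNS replicate 2 or GL261 replicate 2, 2 fell and 1 rose, without mNS replicate 1 or GL261 replicate 3, 3 fell and 1 rose, and without mNS replicate 3, 2 fell and 2 rose. Slc35a4 had 90.1, 96.1 and 89.1 CPM in mNS and 133, 157 and 166 CPM in GL261 (-0.72 ± 0.09, adjusted p = 0.000125), and Slc35a5 fell by 0.64. Slc33a1, which brings acetyl-CoA into the endoplasmic reticulum, fell by 0.64; 32.02% of its exon bases lie opposite an unlisted antisense transcript. Slc50a1, a sugar carrier of the SWEET family, fell to 19.98 ± 3.10 CPM in mNS, against 37.6 ± 1.36 CPM in GL261 (-0.89). Of 4 Slc37 genes, which exchange sugar phosphates, 2 rose and 1 fell. Slc37a2 rose 3.20-fold, or 5.69-fold without GL261 replicate 1, and Slc37a4, the glucose-6-phosphate carrier, fell by 0.32, a call lost without mNS replicate 1 or 2 or GL261 replicate 1 or 3. Slc37a3, the most abundant of the 4, was not called, at 54.3 ± 4.79 CPM in mNS and 53.5 ± 1.17 CPM in GL261. Slc17a9, a vesicular nucleotide carrier, was 3.55-fold lower in mNS, or 6.22-fold lower without mNS replicate 3, on 22 reads in mNS and 77 in GL261.

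**Figure D5:**
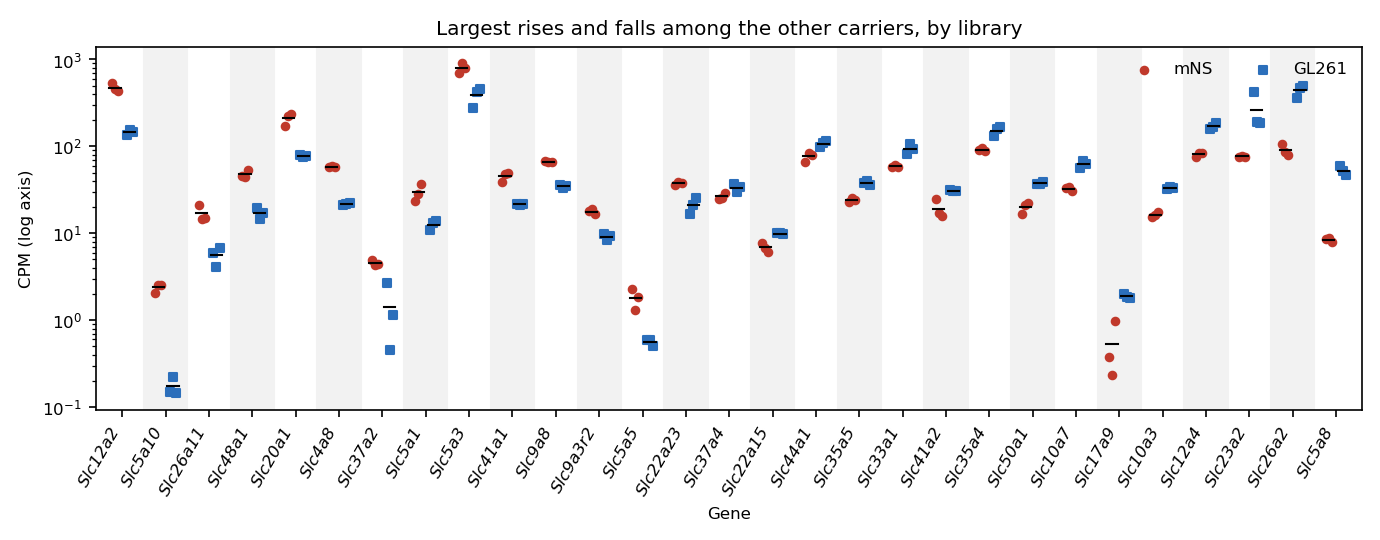
CPM on a log axis for 29 of the 30 largest rises and falls among called genes outside the zinc, Slc2 and Slc16 families (Slc4a4, with no read in GL261, is left out), ordered by difference; points are single libraries (mNS circles, GL261 squares) and bars are group means. The genes were picked by their differences in these same libraries, which favours groups that lie apart. The groups do not overlap for any gene shown, beside 69.9% of all tested genes. Slc23a2 shows 1 GL261 library at 419 CPM above the others at 189.9 and 186 CPM.

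Choline carriers and the organic ion carriers of the Slc22 family moved in both directions. The called fatty acid carriers all rose, and no nucleoside carrier was called with all libraries as deposited. Slc27a4, a fatty acid carrier, rose by 0.72 on the log2 scale, to 76.2 ± 12.7 CPM in mNS, against 45.8 ± 4.84 CPM in GL261, and 3 of 4 Slc27 genes rose. Slc44a1, the choline carrier, fell by 0.48, while its relative Slc44a2, added after its value was seen, rose by 0.65. The bile acid carrier relatives Slc10a3 and Slc10a7 fell by 0.99 and 0.91. Of 6 Slc22 genes 2 rose and 2 fell, with Slc22a23 at 0.82 and Slc22a15 at -0.48. Without mNS replicate 1 or 2 only 1 rose and 1 fell, and without GL261 replicate 1 or 3 2 rose and 1 fell. The nucleoside carrier Slc29a1 (ENT1) was not called, at 193 ± 11.3 CPM in mNS and 179 ± 13.6 CPM in GL261, but was called higher after rescaling to a common sum (log2 difference 0.20) and after quantile normalisation (0.21). Of 7 listed genes of folate and nucleoside metabolism, 5 fell and 1 rose. Among these Tk1 fell by 0.87, Adk by 0.79 and Mthfd1 by 0.54 on the log2 scale.

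Some carriers varied more between the libraries of a group than between the groups. Slc47a1 (MATE1), which expels organic cations, had 238, 180.2 and 147 CPM in mNS and 285, 151 and 157 CPM in GL261, highest at the lowest passage of each group, and was not called. Slc14a1, the urea carrier, added after its values were seen, had 3.25, 6.65 and 6.23 CPM in mNS and 0.373, 3.21 and 4.91 CPM in GL261. It was not called with all libraries, and was called without GL261 replicate 3, at 1.36. Among carriers with a group mean of at least 10 CPM, the highest library of a group was in the median 1.15 times the lowest in mNS (85 genes) and 1.19 times in GL261 (77 genes). It was at least 1.5 times the lowest for 6 genes in each group, with the largest spreads in Slc30a1 (1.64) for mNS and Slc23a2 (2.25) for GL261. Of the 49 carriers outside the rule for named genes, 47 were tested: 17 rose, 3 fell and 27 were not called, with log2 differences between -0.31 and 0.93, the highest that of Slc14a1. Outside the Slc2, Slc16, Slc30 and Slc39 families 34 genes rose and 18 fell. The rule names the 15 largest of each, which leaves few falls by construction.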

How the data were processed

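Libraries were made with a kit for stranded total RNA, per the labels' protocols. The deposited signal is CPM that the authors scaled with TMM factors, per the labels. The tools in the submitters' processing notes are edgeR 3.4.2, HTSeq 0.5.3p9 and TopHat2 (version 2), on mm10, with no roles given. All values in each column came out as whole multiples of 1 step within 0.001 reads (100%), which gave the reads per gene and library. How the authors chose the listed genes is not stated there.

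Log2(CPM + 1) values were compared in limma 3.58.1 (R 4.3.3; lmFit, then eBayes with a mean trend; two-sided). P-values were adjusted by Benjamini and Hochberg's method over all genes whose mean reached 1 CPM. Differences are mNS minus GL261 on that scale, which understates the change of low genes; ratios are of mean CPM. Against 0 reads, folds are lower bounds at 3 reads per library (0.222 CPM in GL261), covering counting error only. Alternatives were pseudocounts of 0.5 and 0.1, no filter, 3 rescalings, leaving out each library, a stricter threshold, and edgeR 4.0.16 and DESeq2 1.42.0 on the recovered reads. The code was tested on simulated counts. Positions and exon lengths are from GENCODE M21 (GRCm38); 1 carrier, Slc24a6, was matched by a synonym. Promoters are from RefSeq.

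The members, gene lists and rules were chosen with earlier results of these data known. The rule names all Slc2, Slc16, Slc30 and Slc39 members, the 15 largest rises and 15 largest falls among called genes of the other families, their 8 highest means, and the largest called and the most abundant member of each family of 3 or more: 68 genes, of which 1 is not reported here. Up to 3 called genes with the largest differences are named per partner list. Plots used Python 3.11.15 and matplotlib 3.10.9.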

Additional observations from a re-analysis of the deposited data

How the results depend on the processing

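Of the 68 carriers that the rule names, 56 kept their direction and their side of the threshold in all 15 alternatives. No paired analysis was possible because the titles give passages and no replicate number shared between the groups. With all libraries 49 carriers were called higher and 30 lower; leaving out 1 library gave 45 to 50 higher and 25 to 30 lower, and at least 2-fold 17 to 20 higher and 7 to 10 lower, beside 19 and 8. With columns rescaled to a common sum 52 were called higher and 25 lower. Over all 12006 tested genes the calls moved the same way, from 3865 higher and 3849 lower to 4456 higher and 3198 lower. Of the 79 calls 76 were shared with edgeR's quasi-likelihood and exact tests and with DESeq2. The number of Slc30 genes called was 5 with all libraries and 3 to 4 with 1 library left out, since Slc30a6 lost its call each time and Slc30a5 without mNS replicate 2. Genes not called that changed sign were Slc37a3 (-0.0036 with libraries centred on the median gene, -0.0506 to 0.0593 with 1 library left out), Slc39a7 (0.0723 after rescaling to a common sum, 0.0922 after quantile normalisation, -0.0322 to 0.0023 with 1 library left out) and Slc47a1 (0.0587 and 0.0536 under the same rescalings, and -0.21 to 0.26 with 1 library left out). The cause was not tested. Depth limits Slc39a8, Slc2a9, Slc2a13, Slc17a9, Slc5a5 and Slc5a10, with 7 to 23 reads in the lower group, and Slc4a4, with 0.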

Other observations

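The table also lists 19 solute carrier rows whose symbols carry another letter than a (Slc18b1 and the Slc35 subfamilies b to g) and which fall outside the symbol rule. Of these 4 were higher in mNS, 8 lower and 7 not called. Slc35f1, a member known mainly from brain, differed more than any of the 117 carriers described above: it fell to 0.960 ± 0.277 CPM in mNS, against 173 ± 9.28 CPM in GL261, a log2 difference of -6.48 ± 0.12 (limma adjusted p = 5.67e-09). Slc35e1 fell to 91.7 ± 1.86 CPM in mNS, against 203 ± 13.4 CPM in GL261 (-1.13). Slc35b2, which brings the sulfate donor PAPS into the Golgi, fell to 88.0 ± 5.02 CPM in mNS, against 161 ± 12.04 CPM in GL261 (-0.87), as did the sulfate carrier Slc26a2. These genes were chosen after their values were seen.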
